A study of Mus musculus with 12 samples.

Results

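The genes of gonadal white adipose tissue (GWAT) are described here in mice that lack HOIP in adipocytes and that were kept on the control diet (CD). Bulk RNA was sequenced from 3 libraries of HoipA-KO mice (Hoip fl/fl AdipoQ.Cre+) and compared with WT CD replicates 1 and 2 (Hoip fl/fl AdipoQ.Cre-), and WT CD replicate 3 was used only as a check. These are 5 of the 12 libraries of the series, with 1 more as the check, and the other 6 hold the same genotypes on the high-fat diet (HFD). Every library is GWAT RNA pooled from 3 male mice that started the diet at 6 weeks of age and stayed on it for 16 weeks, and the labels give 14% of fat for the CD and 60% for the HFD. The study's methods name a CD of a slightly different fat content, and the label is used here. Both genotypes carry the floxed Hoip alleles, and the Cre is driven by the adiponectin promoter, which is active in mature adipocytes. The WT mice therefore have no Cre, and a pool of 3 mice counts as 1 replicate. The whole table of 55281 genes was fitted, of which 18427 had enough counts to be tested. Genes were then described beyond lists of adipocyte, macrophage and cell death genes, which were set aside. Some of their genes are still named below, such as Adrb3 in the adrenergic list and Cd52 for its level in WT CD replicate 2. Of the 18427 genes, 1292 had more than 8 times the level in 1 of the 2 WT CD libraries than in the other, and these were marked as possible RNA of other tissues. P-values here measure the spread between pools of mice.

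HOIP, encoded by Rnf31, is the catalytic subunit of the linear ubiquitin chain assembly complex (LUBAC), which also holds HOIL-1 and SHARPIN. LUBAC joins ubiquitin molecules head to tail on the signalling complexes of death receptors and innate receptors, and so it carries signals to NF-κB and restrains cell death. GWAT consists of adipocytes that store and release lipid and of a stromal vascular fraction of progenitors, vessels, nerves and immune cells, and in male mice it lies against the epididymis. In whole tissue, fewer cells of a type and less RNA per cell cannot be told apart.

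Rnf31 did not pass the test in whole GWAT. In WT CD replicates 1 and 2 its level was 20.2 and 20.6 CPM, and in the 3 HoipA-KO CD libraries it was 17.9, 18.3 and 21.6 CPM (counts scaled to a common library size, normalized by TMM), and the groups overlap. Its log2 fold change was -0.083 (SE 0.14, adjusted p = 0.654, by the quasi-likelihood test of edgeR, adjusted after Benjamini and Hochberg over the genes tested, as is every adjusted p given here). A count of whole transcripts in whole tissue does not check the deletion of a floxed exon in 1 cell type. Of the 8 genes listed for LUBAC and its regulators, 2 rose and none fell, a smaller share than the 37.7% called over all genes tested (18.9% higher), and 0 to 3 rose when 1 CD library was left out. Tnip1, which encodes a ubiquitin-binding partner of A20, had 31.5 and 42.7 CPM in WT CD and 58.1, 54.7 and 61.5 CPM in HoipA-KO CD (log2 fold change 0.65, SE 0.15, edgeR adjusted p = 0.00851). Every HoipA-KO CD library lay above both WT CD libraries, and the call was lost without HoipA-KO CD replicate 3 (edgeR adjusted p = 0.0668). Sharpin had 25.4 and 27.9 CPM in WT CD and 33.9, 33.97 and 39.2 CPM in HoipA-KO CD (log2 fold change 0.42, edgeR adjusted p = 0.0333), a call that 12 of 16 alternative settings did not keep. Rbck1 (HOIL-1), the linear deubiquitinases Otulin and Cyld, Spata2 and Tnfaip3 (A20) did not pass, with log2 fold changes of 0.12, 0.36, 0.043, 0.13 and 0.86. Among alternatives that kept 2 or more WT CD libraries, Tnfaip3 passed with a block for replicate number. With WT CD replicates 2 and 3, Tnfaip3 and Rbck1 passed, and 4 of the 8 listed genes rose. The log2 fold change of Otulin ran from -0.017 to 0.86 when 1 CD library was left out.

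Markers of GWAT were present in every library. Among the CD libraries, transcripts typical of the male reproductive tract were most abundant in WT CD replicates 2 and 3. The adipocyte hormone Adipoq was at 3452 and 1790 CPM in WT CD replicates 1 and 2, 1258 CPM in replicate 3 and 307 to 493 CPM in HoipA-KO CD, so that the defining transcript of the tissue was present throughout and was lower in every HoipA-KO library. Total counts ran from 45692078 to 51686397 in WT CD and from 48022027 to 60540260 in HoipA-KO CD. Across the genes tested, Pearson's r on log2(CPM + 1) was 0.904 between WT CD replicates 1 and 2 and 0.984 to 0.993 among the HoipA-KO CD libraries. Between WT CD and HoipA-KO CD it was 0.894 to 0.914 for WT CD replicate 1 and 0.8365 to 0.861 for replicate 2. WT CD replicate 3 reached 0.793 and 0.795 with the other WT CD libraries. Germ cell genes were abundant in WT CD replicate 3. The 20 genes of that list summed to 16088 CPM in it. The sum was 61.8 and 599 CPM in replicates 1 and 2 and 36.0 to 40.0 CPM in HoipA-KO CD. Prm2, a protamine that packs sperm DNA and the most abundant of the list, was at 3123 CPM in replicate 3. It was at 5.53 and 156 CPM in replicates 1 and 2 and at 0, 0.0184 and 1.68 CPM in HoipA-KO CD.

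**Figure D1:**
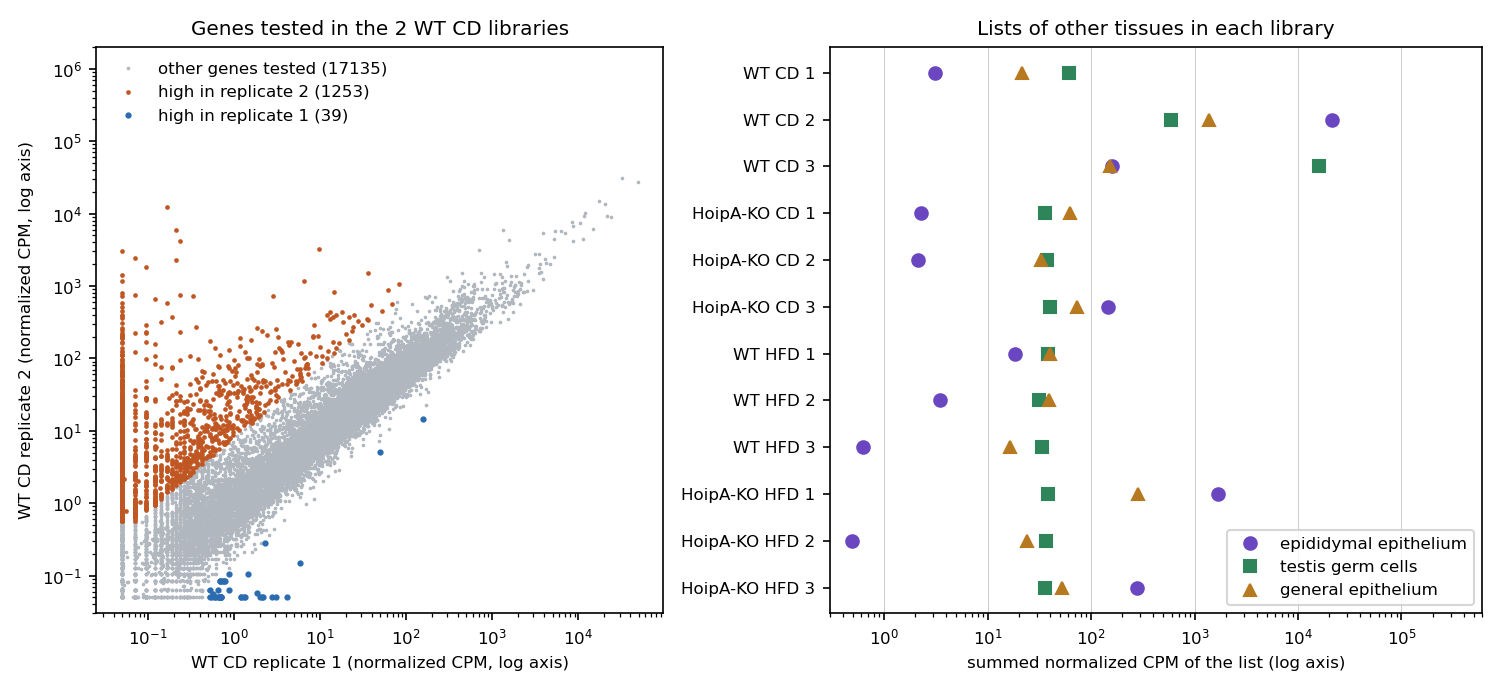
Left, each point is a gene tested, with its normalized CPM in WT CD replicate 1 and in replicate 2 on log axes (values under 0.05 are drawn at 0.05), and coloured points differ by more than 8 times; 1253 are high in replicate 2 and 39 in replicate 1. Right, the summed normalized CPM of 3 lists of other tissues in each of the 12 libraries on a log axis, with the epididymal list highest in WT CD replicate 2 and the germ cell list highest in WT CD replicate 3.

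Nearly all genes that were high in 1 WT CD library were high in replicate 2. Of the 1292 marked genes, 1253 were high in WT CD replicate 2 and 39 in replicate 1. Over all genes of the table, those high in replicate 2 numbered 1755 and held 9.75% of its normalized counts, against 0.522 to 0.579% in the HoipA-KO CD libraries and 8.72% in WT CD replicate 3. The most abundant are genes known from the epididymis. Crisp1, a secreted sperm-coating protein, was at 0.166 and 12261 CPM in the same pair of WT CD libraries and at 0.0397, 0 and 0.0608 CPM in HoipA-KO CD, and Cuzd1, the next most abundant, had 0.214 and 6008 CPM and 4.88, 6.85 and 17.1 CPM. The 31 genes of the epididymal list summed to 3.09 and 21380 CPM in the 2 WT CD libraries and to 2.26, 2.13 and 147 CPM in HoipA-KO CD, where 8 of the 31 were at 0 in all 3 libraries. Of the genes high in replicate 2, 394 were called lower in HoipA-KO CD and 8 higher, and of the 39 high in replicate 1, 2 were lower and 1 higher. Of the germ cell list 15 of 16 genes tested were called lower, and 9 of its 20 genes were marked. Cd52, a surface antigen of lymphocytes and of epididymal cells, had 9.55 and 3264 CPM in WT CD and 99.9, 94.99 and 104.7 CPM in HoipA-KO CD, so its log2 fold change was -4.03 as fitted (edgeR adjusted p = 0.0549) and 3.39 (edgeR adjusted p = 0.0286) without WT CD replicate 2. Adcyap1r1, a receptor of the neuropeptide PACAP and the most abundant gene high in replicate 1, had 156 and 14.3 CPM in WT CD and 37.3, 44.3 and 33.4 CPM in HoipA-KO CD. Around the limit of 8 times, among genes with a mean of at least 10 CPM in a group, Slc1a1, Fbxo10 and Trim36 lay just under it with ratios of 8.00, 7.96 and 7.84, and Mamld1, Sgms2 and Lrp4 just over it with 8.02, 8.04 and 8.22.

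Of the 18427 genes tested, 37.7% were called on CD, 18.9% higher and 18.8% lower in HoipA-KO. The 3 HoipA-KO CD libraries did not overlap the 2 WT CD libraries for 53.9% of the genes. The median log2 fold change of all genes tested was -0.055, and the counts and medians of lists below are read beside these values. Without the marked genes 3482 were higher and 3060 lower of 17135. Of the protein-coding genes 6082 of 15617 were called, and of the others 865 of 2810, of which 590 were lower. For 2760 of the 3491 genes called higher, WT CD replicate 3 also lay below every HoipA-KO CD library, and for 2395 of the 3456 called lower it lay above them. The 49 lists described below hold 1267 genes tested, of which 562 were called. When each CD library was left out in turn, the number of calls in a list's more frequent direction moved by over 1.5 times in 20 of the 48 lists with a call. Of 48 counts of 1 to 5 calls in 1 direction of a list, 33 moved by over 1.5 times without 1 CD library, so no direction is read from them. The lists set aside hold adipocyte and macrophage genes, whose levels are given beside the results they moved with, and 51 cell death genes, of which 24 rose and 5 fell.

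Mast cell genes were among the largest rises outside the lists set aside, as were genes with few reads in WT. Mcpt4, a chymase stored in mast cell granules, had 0.998 and 1.06 CPM in WT CD and 145, 159 and 124 CPM in HoipA-KO CD (log2 fold change 7.11, SE 1.25, edgeR adjusted p = 0.00242). Tpsb2, a mast cell tryptase, had 2.11 and 1.16 CPM in WT CD and 211, 153 and 193 CPM in HoipA-KO CD, and Cpa3, a carboxypeptidase of the same granules, 1.05 and 0.401 CPM against 109, 120.3 and 74.6 CPM. For Fcer1a, which encodes the chain of the high-affinity receptor that binds IgE, and for Mrgprb1, a G protein-coupled receptor, the 2 WT CD libraries held 1 to 6 reads each, and the ratio of pooled counts was 167 with a 95% interval of 84.5 to 387 for Fcer1a and 234 with a 95% interval of 100 to 720.4 for Mrgprb1. Where values are set against each other, those of WT CD replicates 1 and 2 come first and those of HoipA-KO CD replicates 1 to 3 second. Intervals on such ratios cover counting error only. In all 5 genes every HoipA-KO CD library lay above both WT CD libraries and WT CD replicate 3.

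Adam8, a membrane metalloprotease of leukocytes, had the highest level among the 12 largest rises, from 4.89 and 7.03 CPM in WT CD to 626, 923 and 632 CPM in HoipA-KO CD (log2 fold change 6.93, SE 0.82, edgeR adjusted p = 0.000515). F7, which encodes coagulation factor VII, had 0.594 and 0.549 CPM in WT CD and 52.96, 80.6 and 56.9 CPM in HoipA-KO CD. Serpinb9b, a serpin of the granzyme inhibitor family, had 0.309 and 0.211 CPM in WT CD and 98.4, 226 and 89.7 CPM in HoipA-KO CD, with replicate 2 above the other HoipA-KO libraries. Eef1a2 encodes the form of elongation factor 1A found in muscle and neurons, and its WT CD libraries held 3 and 2 reads against 39.0, 39.9 and 36.0 CPM in HoipA-KO CD (ratio of pooled counts 696 with a 95% interval of 298 to 2144). Tm4sf19, a small membrane protein, reached 37.6, 57.4 and 19.6 CPM in HoipA-KO CD and Hmga2, a chromatin protein of embryonic and proliferating cells, 15.8, 46.03 and 15.7 CPM, with ratios of 294 with a 95% interval of 168 to 569 and 185 with a 95% interval of 108 to 347. Oit3 had 0.0713 and 0.106 CPM in WT CD and 9.28, 15.1 and 9.18 CPM in HoipA-KO CD.

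**Figure D2:**
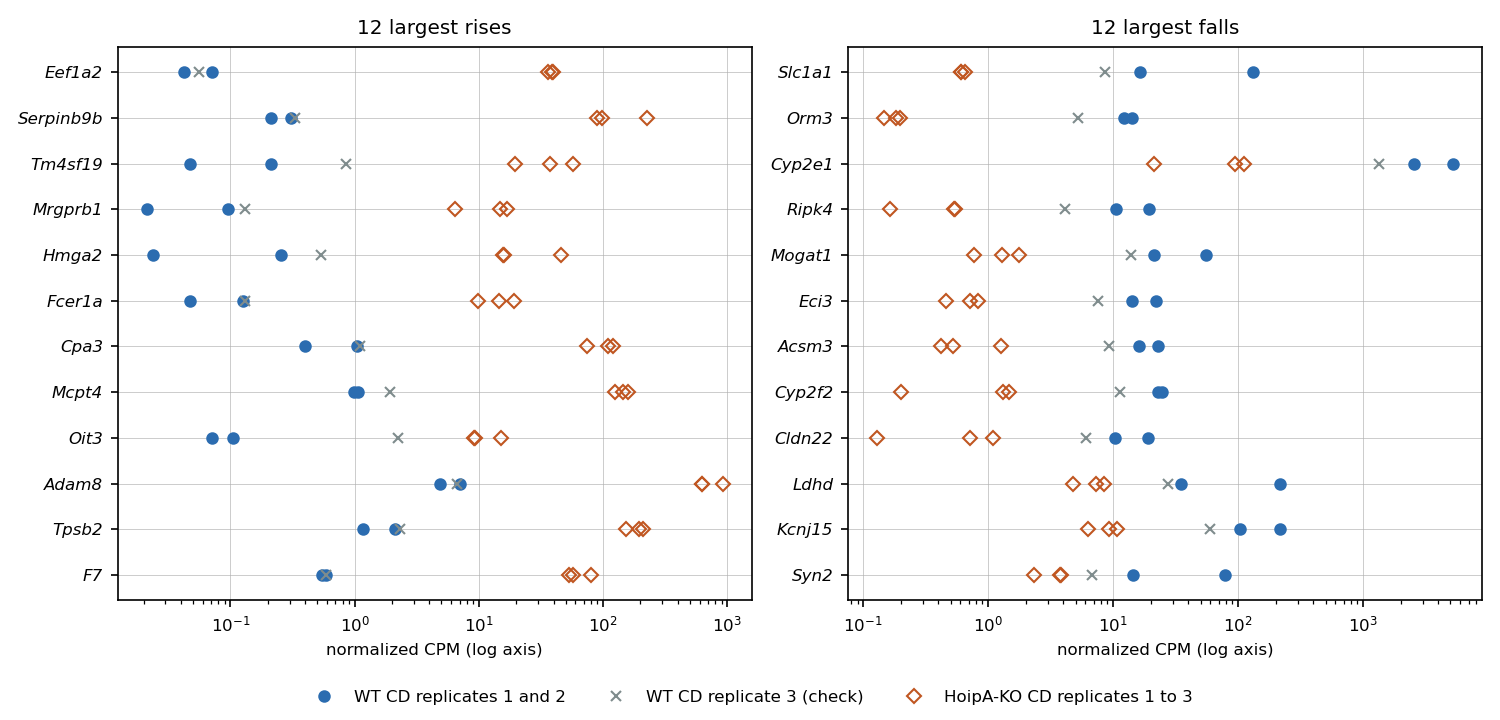
Normalized CPM in each CD library on a log axis for the 12 genes with the largest rise (left) and the 12 with the largest fall (right) among genes with adjusted p under 0.05, at least 10 CPM in the higher group, no overlap between groups, no mark for 1 WT CD library and no place in the lists set aside or those of other tissues. Filled circles are WT CD replicates 1 and 2, crosses WT CD replicate 3 and open diamonds the 3 HoipA-KO CD libraries, and replicate 3 lies on the WT side for all 24 genes.

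Among the largest falls were enzymes of lipid and xenobiotic metabolism, at levels far above the floor of 3 counts in WT. Cyp2e1, a cytochrome P450 that oxidizes small molecules and fatty acids, had 5254 and 2544 CPM in WT CD and 110.5, 21.2 and 94.0 CPM in HoipA-KO CD (log2 fold change -5.70, SE 0.94, edgeR adjusted p = 0.00173), and WT CD replicate 3 had 1335 CPM. Another P450, Cyp2f2, had 22.9 and 24.6 CPM in WT CD and 1.31, 0.202 and 1.48 CPM in HoipA-KO CD. Mogat1, which acylates monoacylglycerol, went from 55.4 and 21.1 CPM to 1.29, 0.771 and 1.76 CPM, Eci3, an enoyl-CoA isomerase, from 21.8 and 14.2 CPM to 0.835, 0.459 and 0.709 CPM, and Acsm3, a medium-chain acyl-CoA synthetase, from 22.7 and 16.0 CPM to 1.27, 0.422 and 0.527 CPM. The groups lay apart for each of them. Orm3, an acute-phase glycoprotein of the orosomucoid family, had 14.0 and 12.2 CPM in WT CD and 0.198, 0.147 and 0.182 CPM in HoipA-KO CD (log2 fold change -6.20, SE 0.75, edgeR adjusted p = 0.000527). Kcnj15, an inward-rectifier potassium channel, had 214 and 103 CPM in WT CD and 9.18, 6.29 and 10.8 CPM in HoipA-KO CD, and Cldn22, a claudin, 18.8 and 10.3 CPM against 0.714, 0.128 and 1.09 CPM.

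The other 4 of the 12 largest falls were more abundant in WT CD replicate 2 than in replicate 1. Slc1a1, a glutamate transporter, had 16.4 and 131 CPM, Ldhd, which oxidizes D-lactate, 35.0 and 214 CPM, Syn2, a synapsin, 14.3 and 78.7 CPM and Ripk4, a kinase of epidermal differentiation, 10.6 and 19.3 CPM in replicates 1 and 2. Their HoipA-KO CD levels were 0.655, 0.606 and 0.608 CPM, 7.28, 4.75 and 8.47 CPM, 3.83, 2.33 and 3.73 CPM and 0.536, 0.165 and 0.547 CPM. Without WT CD replicate 2 the call of Ldhd was lost (edgeR adjusted p = 0.0594), and those of the other 3 were kept, while that of Ripk4 was lost without HoipA-KO CD replicate 1 or 2. How much of these 4 genes in replicate 2 came from the epididymis was not tested.

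Among metabolic lists, the breakdown of branched-chain amino acids had the largest share of falls in HoipA-KO CD. That pathway burns leucine, isoleucine and valine in the mitochondria of adipocytes, and 18 of its 19 genes fell and 1 rose, with a median log2 fold change of -1.47. With all 12 libraries 14 fell, and with replicate 3 taking the place of replicate 1 in WT CD 10 did (median -0.75). Aldh6a1, which acts on valine and thymine products, had 518 and 509 CPM in WT CD and 77.7, 67.9 and 63.2 CPM in HoipA-KO CD (log2 fold change -2.88, SE 0.22, edgeR adjusted p = 0.000452). Ivd, isovaleryl-CoA dehydrogenase, had 322 and 204 CPM against 58.8, 53.4 and 60.6 CPM, and Mccc2, a subunit of the carboxylase that follows it in leucine breakdown, 107 and 56.9 CPM against 21.3, 15.9 and 21.4 CPM. No library of one group reached the other in any of these 3 genes, and WT CD replicate 3 lay between them, at 207, 127 and 39.1 CPM. Of the TCA cycle and pyruvate entry 18 of 22 genes fell and none rose (median -0.84). Without WT CD replicate 1, 11 fell (median -0.51), and with replicate 3 in its place 8 did (median -0.36). Pyruvate carboxylase, Pcx, had 1072 and 636 CPM in WT CD and 192, 138 and 227 CPM in HoipA-KO CD (log2 fold change -2.20, SE 0.32), Suclg2, a subunit of succinyl-CoA synthetase, 96.9 and 103 CPM against 39.0, 35.1 and 33.9 CPM, and Mpc2, a subunit of the mitochondrial pyruvate carrier, 227 and 183 CPM against 69.8, 65.0 and 92.0 CPM.

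Subunits of the respiratory chain fell in 56 of 82 cases and rose in 1, with a median of -0.71. Ndufb9 of complex I had 229 and 208 CPM in WT CD and 86.8, 79.3 and 99.6 CPM in HoipA-KO CD (log2 fold change -1.30, SE 0.18, edgeR adjusted p = 0.000761), and Cox6c of complex IV 279 and 379.8 CPM against 134, 123 and 166 CPM. WT CD replicate 3 did not lie on the WT side here. It had 97.3 CPM of Ndufb9 and 149 CPM of Cox6c, within the HoipA-KO CD range, and lay beyond that range for only 18 of the 70 subunits whose groups did not overlap. With all 12 libraries 21 subunits were lower (median -0.50), and with replicate 3 taking the place of replicate 1 in WT CD it was 11 (median -0.27). Without replicate 1 it was 36. Mitochondrial ribosomal proteins showed 23 falls and 1 rise among 78 genes (median -0.33) and 8 falls with all 12 libraries. Their median was -0.20 without WT CD replicate 1 and -0.032 with WT CD replicates 2 and 3. Without WT CD replicate 1 or HoipA-KO CD replicate 1 or 2 there were 13 falls, and without HoipA-KO CD replicate 3 there were 48. Mrps6 had 125 and 117 CPM in WT CD and 47.9, 56.4 and 64.6 CPM in HoipA-KO CD, and Mrpl19, the only one that rose, 16.1 and 14.4 CPM against 26.3, 33.0 and 26.9 CPM. Of the thermogenic list 6 of 16 genes fell and 3 rose, among the falls Cox8b, a subunit of complex IV in muscle and brown fat, with 10.8 and 18.2 CPM in WT CD and 2.698, 0.532 and 3.59 CPM in HoipA-KO CD. Ucp1, which uncouples respiration in brown fat, was at 0.0950 CPM in WT CD replicate 1, 12.8 CPM in replicate 2 and at most 0.243 CPM in HoipA-KO CD.

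Peroxisomes, which shorten very long fatty acids, had 20 of 27 genes lower and none higher (median -0.90), and 10 lower with all 12 libraries. With WT CD replicates 2 and 3, 6 were lower (median -0.42). Replicate 3 lay on the WT side for 9 of the 20 peroxisomal genes whose groups did not overlap. The median was -0.58 without WT CD replicate 1. Pxmp2, a channel of the peroxisomal membrane, had 45.9 and 34.3 CPM in WT CD and 4.46, 4.15 and 5.94 CPM in HoipA-KO CD (log2 fold change -3.05, SE 0.25, edgeR adjusted p = 0.000452). Abcd2, a peroxisomal importer of fatty acyl-CoA, had 737 and 330.3 CPM against 129, 134 and 108 CPM, and Pex11a, which acts in peroxisome division, 62.3 and 71.7 CPM against 17.3, 14.5 and 16.0 CPM. All 3 lay lower in every HoipA-KO CD library. Mitochondrial fatty acid oxidation had 10 falls and 1 rise among 20 genes (median -0.59). Without WT CD replicate 1 it had 6 falls (median -0.18), and with replicate 3 in its place 3 falls and 3 rises (median 0.052), so that the sign of the median turned. Among the falls was Echs1, enoyl-CoA hydratase, at 315 and 188 CPM in WT CD and 95.9, 78.3 and 97.6 CPM in HoipA-KO CD, whereas Cpt1a, the gatekeeper that loads fatty acids onto carnitine, rose from 94.7 and 53.9 CPM to 227, 329.6 and 191 CPM (log2 fold change 1.74, SE 0.35, edgeR adjusted p = 0.00468). In cholesterol synthesis 5 genes fell and 3 rose of 21, a share of 38.1% that is near the background of 37.7%, and 3 to 5 fell and 1 to 3 rose when 1 CD library was left out. Fdft1, squalene synthase, had 91.6 and 94.9 CPM in WT CD and 27.9, 33.8 and 27.7 CPM in HoipA-KO CD.

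Adipocyte genes moved with these lists. Of the 52 genes of the adipocyte list 45 were lower and 2 higher, and their summed level was 169236 and 79275 CPM in WT CD replicates 1 and 2, 53580 CPM in replicate 3 and 29668, 26078 and 29184 CPM in HoipA-KO CD. Scd1, a fatty acid desaturase, was its most abundant gene, with 48654 and 27060 CPM in WT CD, and 1 gene of the list was at 0 in a CD library. The part of adipocyte RNA in the falls of metabolic genes was not tested.

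Of the insulin signalling list 12 of 20 genes fell and 1 rose (median -1.20). The median was -0.62 without WT CD replicate 1. With WT CD replicates 2 and 3, 7 fell and 2 rose (median -0.48). The insulin receptor substrate Irs1 had 57.2 and 28.7 CPM in WT CD and 13.3, 11.5 and 11.5 CPM in HoipA-KO CD (log2 fold change -1.82, SE 0.27, edgeR adjusted p = 0.00109), Pde3b, the phosphodiesterase by which insulin restrains lipolysis, 393 and 183 CPM against 65.8, 76.2 and 47.4 CPM, and Gys1, glycogen synthase, 125 and 72.2 CPM against 30.1, 27.6 and 33.7 CPM. WT CD replicate 1 was the highest CD library for each. Of the adrenergic and cAMP list 7 of 20 genes fell and 2 rose (median -0.66), a share of 45.0% beside the 37.7% of all genes. Without WT CD replicate 1, 6 fell and 4 rose (median -0.13), and with replicate 3 in its place 6 fell and 5 rose. Adrb3, the adipocyte receptor for noradrenaline, had 714 and 237 CPM in WT CD, 225 CPM in replicate 3 and 9.38, 9.23 and 14.2 CPM in HoipA-KO CD (log2 fold change -5.44, SE 0.65, edgeR adjusted p = 0.000515). Adcy3, an adenylyl cyclase, went the other way, from 26.4 and 11.8 CPM to 118, 127 and 106 CPM. Of the growth hormone and IGF axis 2 genes rose and 2 fell of 17, and 1 to 4 rose and 2 to 4 fell when 1 CD library was left out. Ghr, the growth hormone receptor, had 1359 and 608 CPM in WT CD and 269, 307 and 269 CPM in HoipA-KO CD, and Igf2r, the receptor that carries mannose 6-phosphate cargo to lysosomes, 92.2 and 64.2 CPM against 266, 450.0 and 268 CPM. Among nuclear receptors 9 fell and 3 rose of 29, a share of 41.4% that is near the background of 37.7%. Leaving out 1 CD library gave 6 to 10 falls and 1 to 4 rises, and a median of -0.44 that became 0.019 without WT CD replicate 1. Rxrg was at 16.4 and 8.30 CPM against 2.76, 2.39 and 3.93 CPM and Nr1d1, a repressor of the circadian clock, at 304 and 69.2 CPM against 35.9, 30.1 and 60.2 CPM. Replicate 1 decided the level of Nr1d1 in WT CD, and its call was lost without that library (edgeR adjusted p = 0.261) and without HoipA-KO CD replicate 1 or 2. The clock list as a whole had 4 falls and 1 rise among 19 genes, a share of 26.3%, and 1 to 3 falls when 1 CD library was left out.

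Glycolysis, the handling of heme iron and a few detoxifying enzymes had single genes that rose steeply. Of 20 glycolytic genes 7 rose and 4 fell. Hk3, the hexokinase of myeloid cells, had 3.80 and 3.23 CPM in WT CD and 225, 289 and 248 CPM in HoipA-KO CD (log2 fold change 6.17, SE 0.76, edgeR adjusted p = 0.000565), and Slc16a3, which exports lactate, 1.26 and 3.91 CPM against 11.96, 15.8 and 15.2 CPM. Slc2a3, a glucose transporter of neurons and testis, fell from 34.1 and 75.3 CPM to 9.26, 6.40 and 8.31 CPM. It was at 638 CPM in WT CD replicate 3, the library with the most germ cell RNA. Hmox1, which opens the heme ring and frees iron, had 36.7 and 21.5 CPM in WT CD and 483, 820.2 and 615 CPM in HoipA-KO CD (log2 fold change 4.46, SE 0.57, edgeR adjusted p = 0.000625). Ftl1, the light chain of the iron store ferritin, had 2584 and 1938 CPM against 11742, 14844 and 14087 CPM and Slc40a1, the iron exporter ferroportin, 7.86 and 21.2 CPM against 88.3, 98.5 and 71.9 CPM. The iron list had 7 rises and 5 falls among 21 genes and the glutathione and NRF2 list 4 and 5 among 23, with 3 to 6 falls in either list and 4 to 7 rises in the latter when 1 CD library was left out. The share called in the glutathione and NRF2 list was 39.1%, near the background of 37.7%. Of 27 steroid and retinoid enzymes 6 rose and 10 fell. Dhrs9, a retinol dehydrogenase, had 0.736 and 0.866 CPM in WT CD and 43.1, 123 and 32.4 CPM in HoipA-KO CD, and Akr1b8, an aldo-keto reductase, 24.0 and 14.4 CPM against 381, 665 and 403 CPM.

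In the 3 lists of the extracellular matrix rises outnumbered falls. Non-collagen matrix genes had 21 rises and no fall among 37 (median 1.32), collagens 16 rises and 3 falls among 38 (median 0.92) and matrix proteases with their inhibitors 17 rises and 2 falls among 28 (median 1.55). The falls numbered 3 in the first and 5 in the last without WT CD replicate 2, and those of collagens 0 to 5 when 1 CD library was left out. Lum, a proteoglycan that spaces collagen fibrils, had 25.9 and 24.7 CPM in WT CD and 319, 309.7 and 218 CPM in HoipA-KO CD (log2 fold change 3.48, SE 0.40, edgeR adjusted p = 0.000493), and Postn, periostin, 77.9 and 75.2 CPM against 417, 931 and 355 CPM. Col1a1, a chain of fibrillar type I collagen, had 167 and 126 CPM against 813, 1403 and 993 CPM, and Col6a3, a chain of the pericellular type VI collagen, 84.8 and 55.6 CPM against 366, 605 and 357 CPM. All HoipA-KO CD libraries lay above all 3 WT CD libraries in these 4 genes. The inhibitors of metalloproteases went apart. Timp1 rose from 1.496 and 2.32 CPM to 39.0, 74.3 and 51.4 CPM (log2 fold change 4.84, SE 0.46, edgeR adjusted p = 0.000452), whereas Timp4 fell from 578 and 230.2 CPM to 41.2, 14.6 and 32.7 CPM (log2 fold change -3.78, SE 0.59, edgeR adjusted p = 0.00134). Among 25 ligands and inhibitors of the TGF-β family 6 rose and 2 fell, and 1 to 4 fell when 1 CD library was left out. Tgfb1 had 35.1 and 35.1 CPM in WT CD and 191, 209 and 192 CPM in HoipA-KO CD, Fst, which traps activins, 3.92 and 3.91 CPM against 18.4, 12.2 and 16.8 CPM, and Gdf3 0 and 0.422 CPM in WT CD against 13.4, 11.2 and 24.0 CPM (ratio of pooled counts 72.6 with a 95% interval of 46.9 to 119). Of the FGF and Wnt list 5 rose and 6 fell among 27, a share of 40.7% that is near the background of 37.7%, and 3 rose without WT CD replicate 1 or HoipA-KO CD replicate 1 or 3. Klb, the coreceptor for FGF21, fell from 38.9 and 24.3 CPM to 11.8, 12.96 and 11.5 CPM.

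Vessels and stroma did not move as one. Endothelial genes, a list that also holds Fabp4 of adipocytes, fell in 10 of 25 cases and rose in 1 (median -0.81). Their median was -0.316 without WT CD replicate 1, -1.225 without WT CD replicate 2 and -0.093 with WT CD replicates 2 and 3. Gpihbp1, which holds lipoprotein lipase on the capillary wall, had 227 and 99.0 CPM in WT CD and 54.6, 29.8 and 58.5 CPM in HoipA-KO CD (log2 fold change -1.77, SE 0.39, edgeR adjusted p = 0.00739), and Rgcc 381 and 158 CPM against 58.5, 40.9 and 77.4 CPM. WT CD replicate 1 was the highest CD library for both, and without it 5 endothelial genes were lower and the call of Gpihbp1 was lost (edgeR adjusted p = 0.0638). With all 12 libraries 6 were lower, and with replicate 3 taking the place of replicate 1 in WT CD it was 2. Of the pericyte and smooth muscle list 4 of 20 genes fell, which is 20.0% against 18.8% of all genes and was 2 genes without WT CD replicate 1 or HoipA-KO CD replicate 2, with Mcam at 572 and 184 CPM in WT CD and 121, 90.4 and 133 CPM in HoipA-KO CD and Rgs5 at 327 and 203 CPM against 127, 57.4 and 104 CPM. Both calls were lost without WT CD replicate 1 (edgeR adjusted p = 0.277 for Mcam and 0.0954 for Rgs5), and that of Mcam also without HoipA-KO CD replicate 1 or 2. Progenitor genes rose in 5 and fell in 2 of 19 cases, a share of 36.8% that is near the background of 37.7%. Their median was 0.31, and 0.44 without WT CD replicate 1. With WT CD replicates 2 and 3, 9 rose and 2 fell. The receptor Pdgfra had 34.8 and 25.5 CPM against 123, 111 and 111 CPM. Of 14 mesothelial genes 0 passed edgeR's test, where 4 had an unadjusted p under 0.05 and DESeq2 called 4, and without WT CD replicate 1, 3 rose and 2 fell. Of 8 lymphatic endothelial genes 1 rose. Of 20 Schwann cell and nerve genes 5 rose and 2 fell, but 0 fell without WT CD replicate 2 or any 1 of the HoipA-KO CD libraries. The share called in that list was 35.0%, beside the 37.7% of all genes. Mbp, a protein of myelin, had 30.5 and 16.1 CPM in WT CD and 60.5, 73.2 and 52.4 CPM in HoipA-KO CD. Uchl1, a ubiquitin hydrolase of neurons, had 7.22 and 3.29 CPM against 99.6, 116 and 114 CPM with 27.8 CPM in WT CD replicate 3. The call of Uchl1 was lost without WT CD replicate 2 (edgeR adjusted p = 0.0522).

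**Figure D3:**
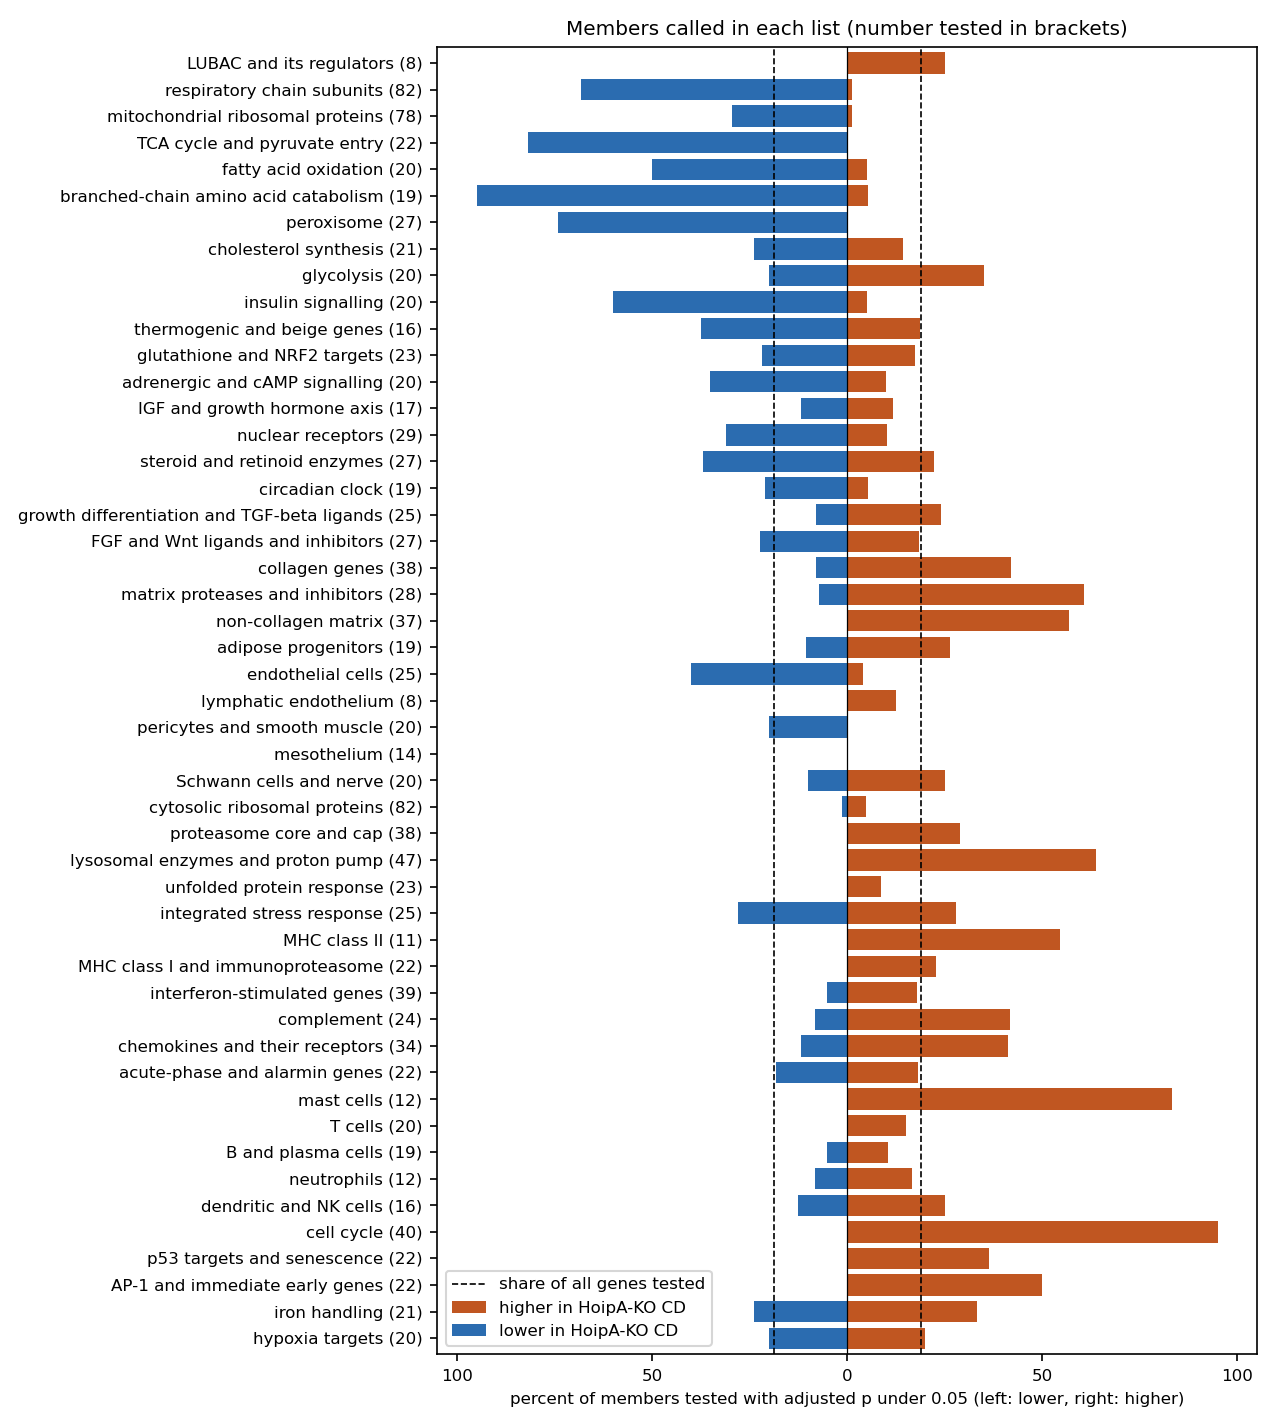
Percent of the members tested of each of 49 lists that passed an adjusted p of 0.05 as higher (right) or lower (left) in HoipA-KO CD than in WT CD, with the number tested in brackets. Dashed lines mark the shares over all 18427 genes, 18.9% higher and 18.8% lower; cell cycle, mast cell and lysosomal genes reach farthest to the right and branched-chain amino acid, TCA cycle and peroxisomal genes farthest to the left.

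Most genes of the lysosomal list rose. Lysosomes break down material from endocytosis and autophagy with acid hydrolases, and a proton pump keeps them acid. Of 47 hydrolases, membrane proteins and pump subunits 30 rose and none fell (median 1.22), and with all 12 libraries 31 rose. Falls numbered 3 without WT CD replicate 1 and 1 without replicate 2. Psap, the precursor of the saposins that present lipids to hydrolases, had 1624 and 1137 CPM in WT CD and 13524, 15516 and 12818 CPM in HoipA-KO CD (log2 fold change 3.34, SE 0.49, edgeR adjusted p = 0.00101). Lgmn, a protease that cuts after asparagine, had 70.8 and 114 CPM against 1256, 1580 and 1278 CPM and Gla, alpha-galactosidase A, 9.29 and 9.67 CPM against 123, 181 and 108 CPM. Ctsa, a carboxypeptidase that protects other hydrolases, had 142 and 79.9 CPM in WT CD and 689, 871 and 756 CPM in HoipA-KO CD, Atp6v1a, a subunit of the proton pump, 95.9 and 89.1 CPM against 481, 745 and 307 CPM, and Mcoln1, a calcium channel, 34.5 and 37.4 CPM against 49.6, 53.3 and 56.2 CPM (log2 fold change 0.56, edgeR adjusted p = 0.0128). The 3 HoipA-KO CD libraries lay above both WT CD libraries in all 6, and the call of Mcoln1 was lost without HoipA-KO CD replicate 3 (edgeR adjusted p = 0.0822).

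Promoters of lysosomal genes are known for a motif read by TFEB and its relatives. The letters TCACGTGA, a palindrome that reads alike on both strands, were searched in the 250 bases before the gene start (RefSeq promoters, GRCm38.p6, found for 36 of the 47 genes). They were present in 4 of the 36, or 11.1%, against 0.907% of the 27025 genes with a promoter in the table, a gene with several promoters counting once if any held the letters. These are the 4 genes, shown with the match in capitals, 5′ to 3′ on the strand of the gene, because they are all among those that rose. The windows lie upstream of the start at chrX:134601167-134601255 (Gla, minus strand), chr2:164833734-164833772 (Ctsa, plus), chr16:44139358-44139417 (Atp6v1a, minus) and chr8:3500447-3500506 (Mcoln1, plus).
Gla: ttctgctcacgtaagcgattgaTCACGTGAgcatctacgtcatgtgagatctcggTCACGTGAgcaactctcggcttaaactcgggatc
Ctsa: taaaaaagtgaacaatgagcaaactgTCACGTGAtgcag
Atp6v1a: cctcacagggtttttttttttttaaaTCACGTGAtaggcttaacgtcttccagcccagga
Mcoln1: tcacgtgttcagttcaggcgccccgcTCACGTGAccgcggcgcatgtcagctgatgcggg
A match of letters is not a bound site, and binding was not measured. In the same windows the letters GCGCATGCG, read by NRF1, were present in 6 of 67 respiratory chain genes with a promoter, or 8.96%, against 1.64% of all, and 1 of these 6 genes was called.

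Macrophage genes moved with the lysosomal list. Of the 110 genes of the macrophage list 93 rose and 3 fell. Cd68, a macrophage marker, was at 23.5 and 20.3 CPM in WT CD and 1112 to 1374 CPM in HoipA-KO CD. The summed level of the list was 31282 and 18632 CPM in WT CD, 12315 CPM in replicate 3 and 84125, 110474 and 82227 CPM in HoipA-KO CD, no gene of it being at 0. Its most abundant gene was Lpl, which adipocytes make as well and which had 14954 and 6086 CPM in WT CD. The part of macrophage RNA in the rises of lysosomal, matrix protease, iron, complement and cell cycle genes was not tested.

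Other lists of protein synthesis and turnover had smaller medians. Of 38 proteasome genes 11 rose and none fell (median 0.38). Without WT CD replicate 1, 20 rose and 1 fell, without replicate 2, 5 rose, and without HoipA-KO CD replicate 3, 6 rose. The most changed was Psmb8, an inducible subunit of the immunoproteasome, with 34.8 and 24.6 CPM in WT CD and 67.3, 54.9 and 73.1 CPM in HoipA-KO CD (log2 fold change 1.13, SE 0.25, edgeR adjusted p = 0.00679). Cytosolic ribosomal proteins had 4 rises and 1 fall among 82 genes, a share of 6.10%, and 0 to 20 rises when 1 CD library was left out, the 20 without WT CD replicate 2. Rpl12 had 320.1 and 436 CPM against 569, 564 and 737 CPM, and its call was lost without WT CD replicate 1 or HoipA-KO CD replicate 3. Their median of 0.23 became -0.0061 when WT CD replicate 1 was left out and 0.50 when replicate 2 was. The unfolded protein response had 2 rises among 23 genes and 0 to 8 when 1 CD library was left out, beside 4 falls without WT CD replicate 1, with Edem2, which sends misfolded glycoproteins to degradation, at 41.7 and 66.9 CPM in WT CD and 88.6, 99.9 and 96.3 CPM in HoipA-KO CD, a call lost without WT CD replicate 1 or HoipA-KO CD replicate 2 or 3. The integrated stress response had 7 rises and 7 falls among 25. Atf3, a transcription factor of that response and of the AP-1 family, had 8.55 and 5.64 CPM in WT CD and 284, 388 and 314 CPM in HoipA-KO CD (log2 fold change 5.53, SE 0.67, edgeR adjusted p = 0.000528). A pair of enzymes of serine synthesis in the list fell, with Phgdh, the first of the pathway, at 497 and 394 CPM against 79.5, 58.3 and 99.0 CPM and Psph, the last, at 27.4 and 119 CPM against 9.28, 10.3 and 12.3 CPM.

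Among immune lists outside that of macrophages, the mast cell list had the largest share of rises. It had 10 rises and no fall among 12 (median 6.89). The complement list had 10 rises and 2 falls among 24 (1 to 3 falls when 1 CD library was left out), with C3ar1, the receptor for the fragment C3a, at 11.9 and 11.7 CPM in WT CD and 382, 509 and 329 CPM in HoipA-KO CD (log2 fold change 5.10, SE 0.61, edgeR adjusted p = 0.000519) and C5ar1, the receptor for C5a, at 16.9 and 12 CPM against 236, 289 and 233 CPM. Chemokines and their receptors had 14 rises and 4 falls among 34 (2 falls without HoipA-KO CD replicate 1 or 2), among them Ccr1, a receptor for inflammatory CC chemokines, with 2.35 and 2.83 CPM against 42.2, 77.6 and 36.1 CPM, and Cxcl14, with 7.36 and 3.63 CPM against 35.1, 35.0 and 47.9 CPM, a call lost without WT CD replicate 2 (edgeR adjusted p = 0.0521). Of 11 MHC class II genes 6 rose, and 3 did without WT CD replicate 1 and 4 without WT CD replicate 2 or HoipA-KO CD replicate 1 or 3. H2-DMb1, which helps load peptides on class II, had 16.6 and 15.3 CPM in WT CD and 73.4, 65.5 and 81.0 CPM in HoipA-KO CD, and Ciita, the transactivator of the class, 3.42 and 4.84 CPM against 16.0, 17.7 and 16.4 CPM, a call lost without WT CD replicate 1 (edgeR adjusted p = 0.0607). MHC class I and the immunoproteasome had 5 rises among 22 and 3 to 7 when 1 CD library was left out, with H2-T23 at 62.6 and 54.2 CPM against 208, 162 and 228 CPM. The acute-phase and alarmin list had 4 rises and 4 falls among 22, a share of 36.4% that is near the background of 37.7%. Its S100a4, a calcium-binding protein, had 26.4 and 13.9 CPM against 365, 578 and 462 CPM, and Il1rl1, the receptor for IL-33, 4.92 and 3.17 CPM against 35.7, 33.2 and 18.9 CPM.

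The lists of T cells, B and plasma cells, neutrophils and interferon-stimulated genes had smaller shares called than the 37.7% of all genes, and dendritic and NK cells a share of 37.5%. Of 20 T cell genes 3 rose (6 without HoipA-KO CD replicate 2), of 19 B and plasma cell genes 2 rose and 1 fell, and of 12 neutrophil genes 2 rose and 1 fell. Of 16 dendritic and NK cell genes 4 rose and 2 fell, and 2 rose without either of the WT CD libraries. Blnk, an adaptor of B cell receptor signalling that myeloid cells use as well, led the B cell list, with 4.30 and 11.4 CPM in WT CD and 163, 194 and 165 CPM in HoipA-KO CD (log2 fold change 4.47, SE 0.62, edgeR adjusted p = 0.000867). Interferon-stimulated genes had 7 rises and 2 falls among 39, a share of 23.1%, and a median of 0.013 that took the other sign under 8 of 16 alternative settings. Oasl1 rose from 1.02 and 1.35 CPM to 10.6, 14.5 and 14.2 CPM, while Ifi27l2a, which interferon also induces, fell from 602 and 239 CPM to 61.6, 50.0 and 77.4 CPM (log2 fold change -2.74, SE 0.53, edgeR adjusted p = 0.00395).

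**Figure D4:**
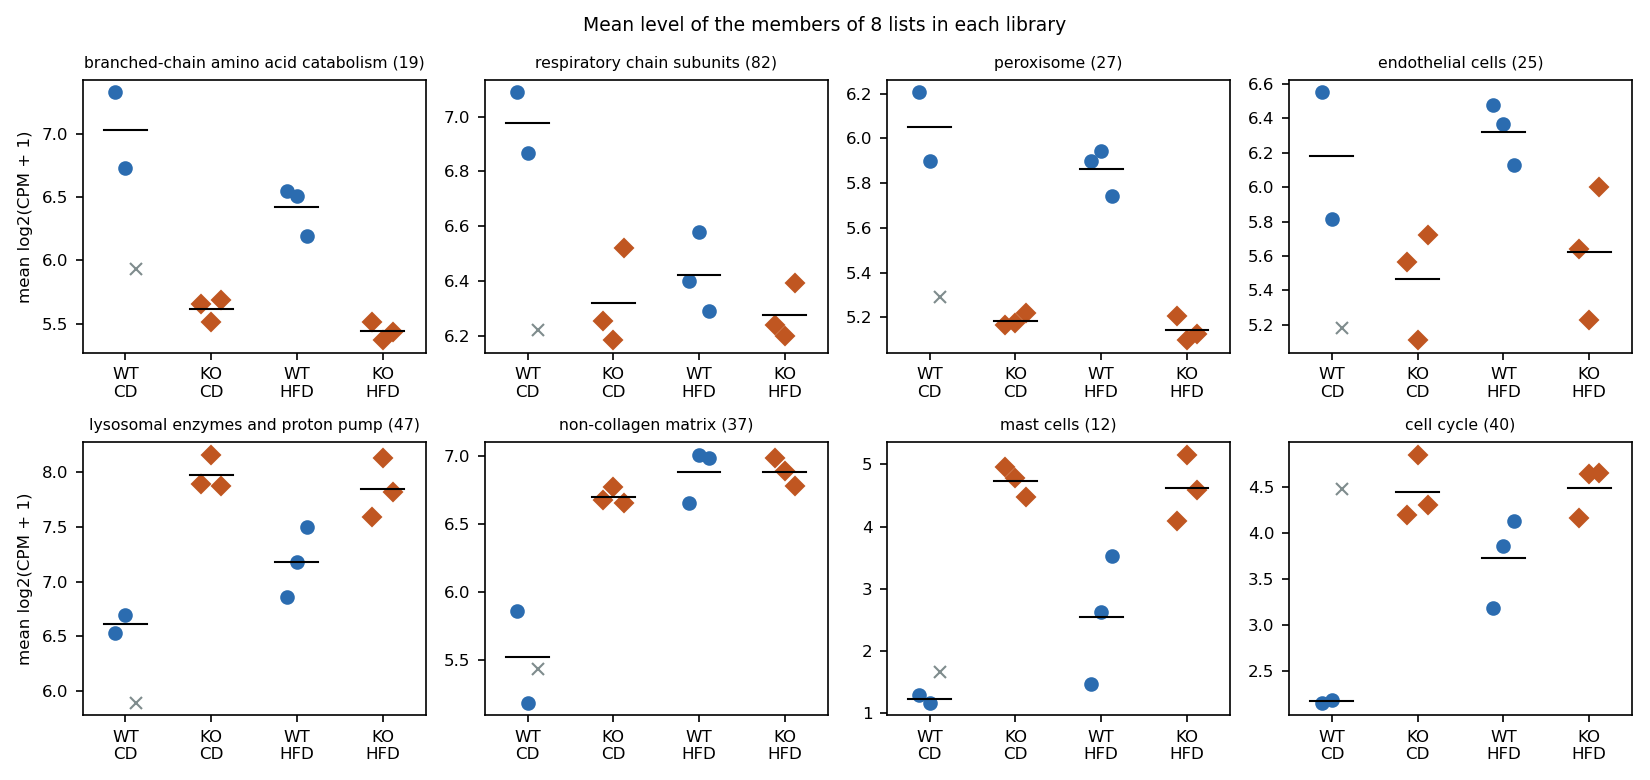
Mean of log2(CPM + 1) over the tested members of 8 lists in each library (number of members in brackets), by genotype and diet. Circles are WT libraries, diamonds HoipA-KO libraries, crosses WT CD replicate 3 and bars the mean of a group without that replicate; on CD the 3 diamonds lie apart from the 2 circles in every panel, and the cross lies within the range of the diamonds for the respiratory chain, endothelial cells and the cell cycle.

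Cell cycle genes had the largest share of rises among the 49 lists, with 38 rises and no fall among 40 and a median log2 fold change of 2.80. Their mean level was 2.16 and 2.19 on the log2(CPM + 1) scale in WT CD replicates 1 and 2 and 4.20, 4.85 and 4.30 in HoipA-KO CD. Tk1, the thymidine kinase of S phase, had 1.43 and 1.44 CPM in WT CD and 21.7, 29.4 and 31.9 CPM in HoipA-KO CD (log2 fold change 4.27, SE 0.43, edgeR adjusted p = 0.000452), with 1.35 CPM in WT CD replicate 3. Cdk1, the kinase that drives entry into mitosis, had 2.87 and 2.47 CPM against 22.8, 39.5 and 31.2 CPM, Top2a, which untangles replicated DNA, 5.06 and 5.41 CPM against 41.4, 84.9 and 42.2 CPM, and Birc5, survivin, 1.31 and 1.99 CPM against 16.2, 24.7 and 20.0 CPM. No HoipA-KO CD library overlapped the 2 WT CD libraries for 39 of the 40 genes. WT CD replicate 3 was high in many of the same genes, at 20.2 CPM of Cdk1, 99.0 CPM of Top2a, 28.1 CPM of Birc5 and 32.9 CPM of Tpx2, a spindle assembly factor. With all 12 libraries 16 genes rose and the median was 0.89. Leaving out either of the WT CD libraries used gave 36 genes. The part of dividing germ cells in the level of replicate 3 was not tested.

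The promoters of genes of mitosis often hold CCAAT boxes, read by NF-Y, and a cell cycle homology region with the core TTTGAA. In the 250 bases before the start, CCAAT on either strand was present in 24 of the 33 genes with a promoter in the table, or 72.7%, against 37.5% of all genes, and TTTGAA in 9 of 33, or 27.3%, against 18.3%. The 2 motifs share no base with each other in the windows shown. The 4 genes below are those with the largest rise that hold both motifs within the last 100 bases before the start, in capitals on either strand, 5′ to 3′ on the strand of the gene. They lie at chr10:69352913-69353012 (Cdk1, minus), chr11:99024190-99024289 (Top2a, minus), chr7:80294376-80294475 (Prc1, plus) and chr19:37376282-37376381 (Kif11, plus) of GRCm38.p6.
Cdk1: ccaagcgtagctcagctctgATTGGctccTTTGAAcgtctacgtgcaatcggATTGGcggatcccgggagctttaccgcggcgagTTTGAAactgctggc
Top2a: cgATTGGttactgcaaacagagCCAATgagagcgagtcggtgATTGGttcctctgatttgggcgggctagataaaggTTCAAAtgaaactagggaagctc
Prc1: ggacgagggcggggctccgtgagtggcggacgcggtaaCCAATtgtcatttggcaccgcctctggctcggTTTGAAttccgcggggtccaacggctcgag
Kif11: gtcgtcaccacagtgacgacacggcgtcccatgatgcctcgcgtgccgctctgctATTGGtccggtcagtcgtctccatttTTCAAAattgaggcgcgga
Prc1, which bundles the microtubules of the central spindle, had 2.73 and 2.81 CPM in WT CD and 19.0, 37.2 and 19.3 CPM in HoipA-KO CD, and Kif11, the motor that pushes the spindle poles apart, 2.19 and 2.13 CPM against 13.9, 29.3 and 15.0 CPM. Their log2 fold changes were 3.18 and 3.17, and with all 12 libraries neither passed (edgeR adjusted p = 0.804 and 0.389).

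Genes of stress and early response rose in part. The AP-1 and immediate early list had 11 rises and no fall among 22 (median 0.81), with 18 rises without WT CD replicate 1 (median 1.55) and 8 without replicate 2 (median 0.41). Egr2, a zinc finger factor, had 2.59 and 8.66 CPM in WT CD and 61.2, 68.4 and 49.2 CPM in HoipA-KO CD, and Fos 33.5 and 15.0 CPM against 181, 175 and 131 CPM (log2 fold change 2.75, SE 0.38, edgeR adjusted p = 0.000870). Of 22 p53 targets and senescence genes 8 rose and none fell, and 4 fell without WT CD replicate 1, 2 without HoipA-KO CD replicate 3, 1 without WT CD replicate 2 and 3 with DESeq2 or with protein-coding genes only. The share called in that list was 36.4%, beside 37.7% called and 18.9% higher over all genes. Plk2, a kinase that p53 induces, had 25.2 and 16.5 CPM against 115, 169 and 114 CPM. Cdkn1a, the cell cycle inhibitor p21, had 62.0 and 50.1 CPM against 109, 135 and 131 CPM (log2 fold change 1.16, SE 0.20, edgeR adjusted p = 0.00207). Hypoxia targets had 4 rises and 4 falls among 20, a share of 40.0% that is near the background of 37.7%, and 8 falls without WT CD replicate 2. Bnip3, a receptor for the removal of mitochondria, had 804 and 352 CPM in WT CD and 132, 102 and 119.7 CPM in HoipA-KO CD, Vegfa, the vessel growth factor, 181 and 72.9 CPM against 30.1, 25.6 and 38.1 CPM, and P4ha1, which hydroxylates collagen, 34.8 and 23.8 CPM against 62.0, 81.8 and 64.4 CPM. P4ha1 rose and the other two fell.

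Outside the protein-coding table, 5 genes with the largest changes were named by the same conditions. Gm20056 had 0.208 and 0.399 CPM in WT CD and 28.1, 43.7 and 15.1 CPM in HoipA-KO CD (log2 fold change 6.53, SE 0.97, edgeR adjusted p = 0.00109), AI662270 3.15 and 3.25 CPM against 45.0, 61.8 and 39.2 CPM, and Gpr137b-ps, named as a pseudogene of a lysosomal membrane protein, 12.8 and 7.89 CPM against 167, 243 and 151 CPM. Reads of Gpr137b-ps and of its parent gene may not be told apart, so its level is uncertain. Gm454 fell from 27.8 and 13.7 CPM to 1.03, 0.936 and 1.378 CPM and 2010016I18Rik from 28.3 and 9.29 CPM to 1.45, 0.477 and 1.22 CPM. All 5 kept their groups apart, with WT CD replicate 3 on the WT side.

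On HFD the same genotypes differed in 11.8% of the genes tested, and the difference between the effects on the 2 diets was called for 3.91%. Of the 721 genes called in that test 660 had a smaller log2 fold change on HFD than on CD and 61 a larger one, and 642 of the 660 were among those called higher on CD. With a block for replicate number 377 genes were called, 363 with a smaller log2 fold change on HFD and 14 with a larger one. The count moved with every CD library that was left out. It was 1 without WT CD replicate 2, 2 without HoipA-KO CD replicate 1 or 2, 4 without replicate 3 and 3668 without WT CD replicate 1, where a fit with a single WT CD library assumes that it varies like the other groups. Several lists that rose on CD had medians closer to 0 on HFD. For cell cycle genes the median was 2.80 on CD and 0.80 on HFD, for mast cell genes 6.89 and 2.32, for non-collagen matrix 1.32 and 0.12 and for MHC class II 1.41 and 0.20. The mean log2(CPM + 1) of non-collagen matrix genes was 6.66 to 6.77 in HoipA-KO CD and 6.78 to 6.99 in HoipA-KO HFD, while WT stood at 5.87 and 5.19 on CD and at 6.66 to 7.01 on HFD. For metabolic lists the medians lay closer together, with values of -1.47 and -1.03 for branched-chain amino acids, -0.90 and -0.74 for peroxisomes and -1.20 and -0.93 for insulin signalling. The respiratory chain had medians of -0.71 on CD and -0.15 on HFD, where 2 of 82 subunits fell. Differences between list medians were not tested. Cytosolic ribosomal proteins had 34 rises of 82 on HFD, beside the 4 on CD that became 0 to 20 without 1 CD library.

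**Figure D5:**
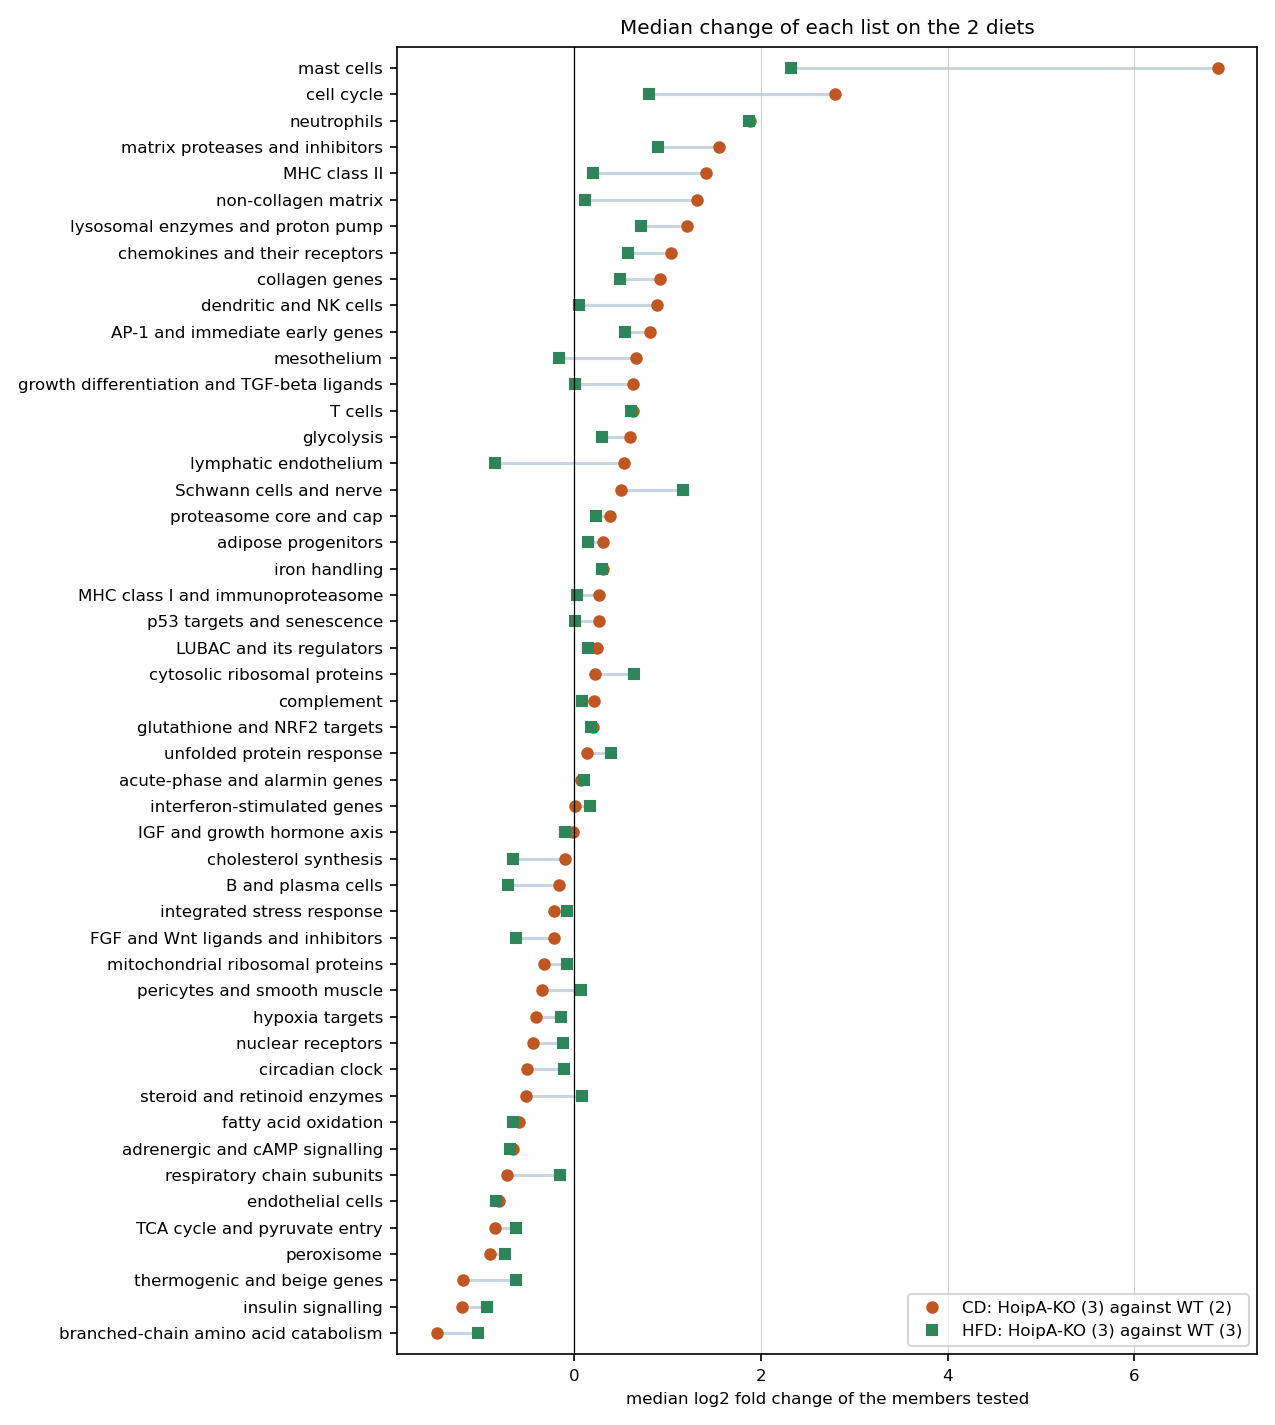
Median log2 fold change of the tested members of each of 49 lists for HoipA-KO against WT on CD (circles, 3 against 2 libraries) and on HFD (squares, 3 against 3 libraries), joined by a line and ordered by the median on CD. The longest lines belong to mast cell and cell cycle genes, whose medians are 6.89 and 2.80 on CD and 2.32 and 0.80 on HFD.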

How the data were processed

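GWAT RNA of 12 libraries (poly-A selected, stranded, each a pool of 3 mice) was read as the deposited table of estimated counts per gene. Per the labels the authors trimmed reads with Trim Galore 0.6.7, aligned them to GRCm38 with STAR 2.7.10a and quantified genes with Salmon 1.5.2. The estimated counts were rounded to whole numbers. Such counts divide reads among similar genes, so that levels of paralogs and pseudogenes are uncertain. Tables of the authors' own comparisons, made with DESeq2 1.38.1, hold fold changes and p-values and were not used.

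Genes were filtered with filterByExpr and scaled by TMM, and edgeR 4.0.16 (R 4.3.3, limma 3.58.1) fitted 1 mean per group over 11 libraries, leaving out WT CD replicate 3. The quasi-likelihood test was adjusted by Benjamini-Hochberg over 18427 genes, with a threshold of 0.05, and the code was tested on simulated data. The biological coefficient of variation was 0.394. Total counts ran from 30513500 to 60540260 per library. The limit below which no fold is given, 3 counts, equals 0.0496 to 0.0983 CPM of these totals, before TMM scaling. Intervals cover counting error only. A gene was marked where the normalized CPM of WT CD replicates 1 and 2 differed by more than 8 times, the lower raised to 3 counts. Named genes were the 12 largest rises and 12 largest falls with no overlap, no mark and at least 10 CPM in the higher group, the 3 most changed members of each list under the same conditions, the LUBAC list, 5 genes per WT CD library among those marked, 5 genes outside the protein-coding table and the genes whose promoters are printed. The text prints part of the genes so chosen, among them 3 of the marked genes of WT CD replicate 2 and 1 of replicate 1. Promoters are from RefSeq (GRCm38.p6). The members and lists were chosen with earlier results of these data known. Alternatives were other scalings, filters, sets of libraries, a replicate block, DESeq2 1.42.0, other thresholds and leaving out each CD library.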

Additional observations from a re-analysis of the deposited data

Results flagged for a closer look

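The difference between the effects of genotype on HFD and on CD passed edgeR's test (adjusted p under 0.05) for 36 of the genes named above for which a fold can be given. The number of genes called in that test moved with single libraries, as given above, and no cause was tested. A negative value, on the log2 scale, means a smaller log2 fold change on HFD. Among the largest rises it was -7.03 for Tm4sf19, -6.15 for Hmga2, -5.34 for Adam8, -5.57 for F7 and -5.56 for Oit3, and the WT CD libraries held 2 and 10 reads of Tm4sf19, 1 and 12 of Hmga2 and 3 and 5 of Oit3. For enzymes and iron genes it was -4.58 for Hk3, -5.68 for Dhrs9 and -2.84 for Hmox1. In the matrix it was -1.91 for Col1a1, -2.13 for Col6a3, -3.50 for Timp1 and -2.69 for Lum. Immune and lysosomal genes had -3.93 for C3ar1, -2.96 for C5ar1, -2.91 for S100a4, -3.08 for Blnk, -2.11 for H2-DMb1 and -2.44 for Gla. Regulators of stress and signalling had -4.31 for Atf3, -1.32 for Cdkn1a, -1.92 for Plk2 and -0.83 for Tnip1. Cell cycle genes had -2.91 for Tk1, -2.67 for Tpx2, -2.43 for Birc5, -2.67 for Cdk1, -2.68 for Top2a, -2.41 for Prc1 and -2.46 for Kif11. Outside the protein-coding table it was -5.29 for Gm20056, -2.83 for Gpr137b-ps and -2.90 for AI662270.

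Genes that fell on CD had positive values, with 0.97 for Suclg2, 1.19 for Cox6c, 1.13 for Pex11a and 3.21 for Slc2a3. For Crisp1, the epididymal gene that is high in WT CD replicate 2, no difference is given, since no HoipA-KO CD library held more than 3 counts.

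WT CD replicate 3, which entered only the alternatives with all 12 libraries and with WT CD replicates 2 and 3, had signal outside the main measurement. Its germ cell list summed to 16089 CPM and Prm2 was at 3123 CPM there, against 36.0 to 40.0 CPM for the list in HoipA-KO CD.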

How the results depend on the processing

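Of 123 named genes that were called, 94 were called under each of 16 alternatives that tested them, and 29 lost the call under 1 or more. The count on CD was 4208 (1671 lower) with only the 5 libraries and 3619 (2120 higher, 1499 lower) at an adjusted p under 0.01. Leaving out a CD library gave 5082 to 7723 genes, 2815 to 3652 higher and 2216 to 4071 lower. Calls were higher in 50.3% of cases, in 60.3% with the 5 libraries and in 42.6% with replicate 3 taking the place of replicate 1 in WT CD. The median of all genes moved to -0.21 with all 12 libraries. Of the 49 lists, 16 had a median of the other sign under 1 or more alternatives.

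The difference between diets was called for 3550 genes (1668 higher, 1882 lower) with WT CD replicates 2 and 3, for 2350 (895 and 1455) with DESeq2, for 14 higher with all 12 libraries, and for 1 to 3668 (0 to 1788 higher, 1 to 1880 lower) without 1 CD library. Without HoipA-KO HFD replicate 1, an alternative chosen after seeing the data, it was 3 (0 higher). The marked genes numbered 2084 at a ratio over 4 and 801 over 16.

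Whether replicate numbers pair the libraries could not be decided. The deviations of so few libraries within a group depend on each other, and libraries of different numbers were not compared. The correlation of same-numbered deviations was 0.106 and -0.080 between WT CD and HoipA-KO CD. It was 0.150, 0.509 and 0.276 for the 3 pairs of HoipA-KO CD and HoipA-KO HFD, and it ran from -0.375 to 0.374 between the other groups. Of the values for the 3 HoipA-KO pairs, only 0.509 lay outside that range. With the replicate block 5893 genes were called on CD, and the difference between diets was called for 377 (14 higher, 363 lower).

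The direction turned for Rnf31 (0.076 with all 12 libraries, 0.21 with WT CD replicates 2 and 3), Adcyap1r1 (0.53) and Prc1 (-0.14) with the latter, and Rbck1 (-0.0053 with protein-coding genes only). Without 1 CD library the log2 fold change ran from -0.17 to 0.47 for Rbck1, -0.017 to 0.86 for Otulin, -9.29 to 5.48 for Cuzd1, -5.04 to 3.39 for Cd52 and -2.03 to 1.41 for Adcyap1r1. The cause was not tested beyond the libraries left out. Depth limits genes near 3 counts, and 2 WT CD pools limit every value.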

Other observations

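Among the lists of other tissues, red blood cells had 71.4% of the genes tested called, skin and mammary epithelium 42.9% and skeletal muscle 35.7%, beside 37.7% of all genes, and the epididymal list 20.0%. Of genes tested, 5 of 7 red blood cell genes fell, as did 5 of 25 epididymal, 3 of 14 general epithelial, 3 of 7 skin and mammary and 1 of 7 prostate and seminal vesicle genes. The red blood cell list summed to 1407 and 2326 CPM in WT CD replicates 1 and 2 and to 758, 663 and 694 CPM in HoipA-KO CD. WT CD replicate 3 had 570 CPM, below every HoipA-KO CD library. It lay on the WT side for 1 of the 5 red blood cell genes whose groups did not overlap. Skeletal muscle had 2 rises and 3 falls among 14, liver 1 rise and 3 falls among 15 and lymph node 1 rise among 15. Of 4 pancreas genes and of 4 genes of intestine and stomach, 0 were called by edgeR or DESeq2 and 0 had an unadjusted p under 0.05. On HFD, the epididymal list summed to 1694 CPM in HoipA-KO replicate 1 and 276 CPM in replicate 3, against 0.494 CPM in replicate 2.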
